A study of Mus musculus with 6 samples.

Results

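Cadherins and catenins, the adhesion receptors of adherens junctions and the proteins that tie them to actin, were followed in mouse embryonic stem (ES) cells with and without the chromatin organiser Satb1. The set held 10 genes of 19938 tested: the cadherin genes Cdh1, Cdh2, Cdh3, Cdh5 and Cdh11, and the catenin genes Ctnna1, Ctnna2, Ctnnal1, Ctnnb1 and Ctnnd1. A gene was taken from the probe sets that carried its symbol alone, and each of the 10 had 1 such probe set. A further 3 probe sets shared by Cdh11 and other genes were left out. Of the 10 genes, 1 passed the test: Ctnnal1, which encodes alpha-catulin, a relative of the alpha-catenins, was 1.99-fold higher in cells without Satb1. The E-cadherin gene Cdh1 and the P-cadherin gene Cdh3, side by side on chromosome 8, had differences of opposite sign, and neither passed the threshold over all genes.

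The Satb1-/- group held 3 arrays, labelled as clones 1-1, 1-2 and 2-1, and the WT group held 3 arrays, numbered 1 to 3. All cells, WT included, carried a selectable HygroTK reporter in the Oct4 locus and had LIF and serum in their medium. They grew for 3 days over irradiated feeders while hygromycin kept those that express Oct4. Feeders were reduced by letting the cell suspension settle before total RNA was taken. Separate cultures are not named for the arrays within a group, nor is the meaning of a clone's first number, so the spread behind each p-value is that among these arrays and may be in part technical.

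Classical cadherins span the membrane and bind the same cadherin on the neighbouring cell in the presence of calcium. Inside the cell, p120-catenin holds the cadherin at the surface, beta-catenin binds its tail, and alpha-catenin links beta-catenin to actin filaments. Beta-catenin outside junctions is also the effector of Wnt signalling in the nucleus, where it partners TCF factors. E-cadherin is the main cadherin of ES cells and holds their colonies together, and a change to N-cadherin is known from the onset of gastrulation.

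Values are log2 expression values, so 1 unit is a 2-fold step within 1 gene, and levels of different genes cannot be compared. Differences are Satb1-/- minus WT in log2 units, with the standard error (SE) of limma, and a gene was called changed at an adjusted p under 0.05 over all genes. "Brighter" means a mean level above that of the median gene, and 8 of the 10 genes were brighter; Cdh5 and Ctnna2 were not. Satb1 itself read 4.38, 4.47 and 4.57 in the Satb1-/- arrays, against 5.12, 4.99 and 5.31 in the WT arrays (difference -0.67, limma adjusted p = 0.0220). The level was low in both groups, and the sources used here do not say where its probes lie relative to the deletion. All 12 ES cell marker genes examined were brighter, with mean log2 levels of 9.35 to 9.39 in Satb1-/- arrays and 9.13 to 9.37 in WT arrays. Their median difference was 0.04, and 2 of them, Nanog and Esrrb, were called higher, where 0.923% of all genes were. Nanog lies on chromosome 6, where 6.73% of genes were called higher, and the Esrrb call depended on which arrays were kept. On the first principal component (36.15% of the variance), which separated the groups, WT replicate 1 lay farthest out, and WT replicate 3 stood apart from the other arrays on the second principal component (29.4% of the variance).

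Over all genes, 184 were called higher (0.923%) and 95 lower (0.476%) in Satb1-/- cells; with each array centred on its median the counts were 159 and 47. Among the 10 cadherin and catenin genes, 1 was called higher and 0 lower by limma. At an unadjusted limma p under 0.05, 3 of them were higher and 2 lower, against 1181 higher and 908 lower of all 19938 genes. Of these members, 1 higher (Cdh3) and 2 lower (Cdh1 and Cdh5) lie on chromosome 8, where the median of the brighter genes was -0.29. All 3 Satb1-/- values lay above all 3 WT values for 4 of the 10 genes, where 8.18% of all genes did so, and below them for 2, where 6.97% did so, which makes 6 genes without overlap beside 15.1% of all genes. The median difference of the 10 genes was 0.09, against -0.00 over all genes. The plot of each gene by array shows how much of each difference lies outside the spread between replicates.

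**Figure D1:**
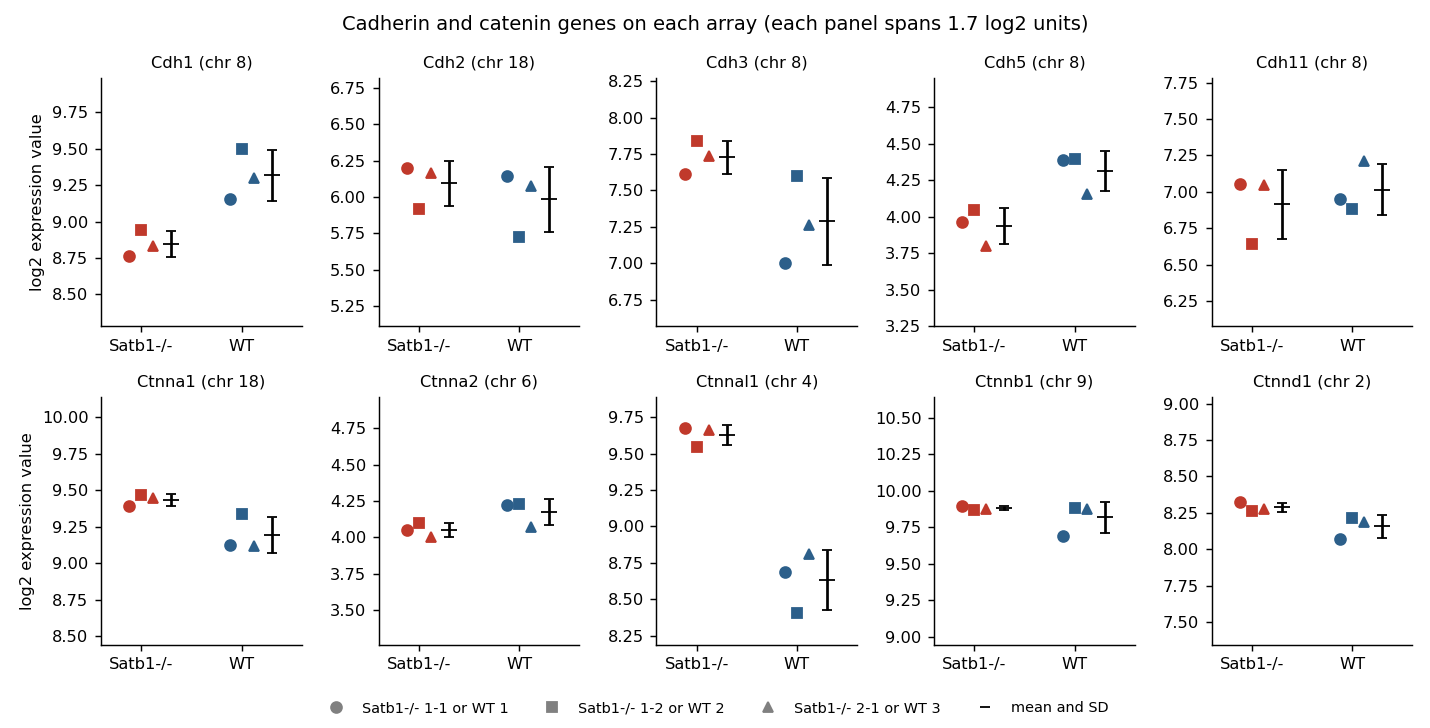
Log2 expression value (vertical axis) of each cadherin and catenin gene on the 3 Satb1-/- arrays (red, left) and the 3 WT arrays (blue, right), with the mean and SD of each group in black. Every panel spans the same number of log2 units. Ctnnal1 has the widest gap between the groups (0.74), and the 3 Satb1-/- values of Ctnnb1 lie closest together (SD 0.01).

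Cdh1, the E-cadherin gene, read 8.77, 8.94 and 8.83 in Satb1-/- arrays 1-1, 1-2 and 2-1, against 9.15, 9.50 and 9.30 in WT arrays 1, 2 and 3. Every Satb1-/- array lay below every WT array, with a gap of 0.21 between the groups. The means were 8.85 ± 0.09 in Satb1-/- cells and 9.32 ± 0.17 in WT cells (SD, n = 3 each), a difference of -0.47 (SE 0.12, 95% interval -0.73 to -0.21). This is 0.721 of the WT level, with an interval of 0.601 to 0.866. The limma adjusted p of 0.101 missed the threshold. Limma's array weights count WT replicate 2, the highest array for Cdh1, most heavily in its group (1.715, against 0.46 and 0.45). With these weights the difference was -0.57 and passed the threshold (limma adjusted p = 0.0151). That fit called 235 of all genes lower, against 95 without weights. In RNA from a whole culture, fewer cells that express a gene and less of its RNA per cell cannot be told apart.

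Cdh3 encodes P-cadherin, a classical cadherin named for its abundance in placenta. It read 7.611, 7.837 and 7.734 in Satb1-/- arrays, against 7.001, 7.598 and 7.262 in WT arrays. The Satb1-/- values lay above the WT values, but by 0.013 at the nearest point, where WT replicate 2 came close to Satb1-/- replicate 1-1. The mean was 7.73 ± 0.11 in Satb1-/- cells and 7.29 ± 0.30 in WT cells (SD, n = 3 each), which gives a difference of 0.44 (SE 0.15, 95% interval 0.11 to 0.77, limma adjusted p = 0.266). Without WT replicate 1, the lowest array, the difference was 0.30, and without WT replicate 2 it was 0.60 (limma adjusted p = 0.495 and 0.0723); array weights gave 0.29 (limma adjusted p = 0.342). A list of 10 trophectoderm markers, of the outer blastocyst layer that forms placenta, had 6 brighter genes and a median difference of -0.20. Its mean log2 level was 5.56 to 5.72 in Satb1-/- arrays and 5.99 to 6.63 in WT arrays. Of the 10 genes 2, Krt8 and Krt18, were called lower, where 0.476% of all genes were. The part of these markers in the Cdh3 values was not tested.

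Cdh1 and Cdh3 are neighbours on chromosome 8, with 0 measured genes between them. Within an array, the Cdh3 value minus the Cdh1 value was -1.16, -1.11 and -1.10 in Satb1-/- arrays, against -2.15, -1.90 and -2.04 in WT arrays. This within-array quantity averaged 0.91 more in Satb1-/- arrays, which restates the separate differences of Cdh3 (0.44) and Cdh1 (-0.47). It was chosen after both genes' values were seen, so it is a description of the pair and is given without a p-value.

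The rest of chromosome 8 gives the setting for both. The median over its 570 brighter genes was -0.29, and 44 of them (7.72%) lay above 0. On this chromosome 36 of 955 genes were called lower (3.77%) and 0 higher (0.0%) by limma, among them 34 of the 570 brighter ones (5.96%). All 3 Satb1-/- arrays lay below all WT arrays for 34.7% of its genes and above them for 0.838%. Cdh1 was at -0.18 relative to the median of the brighter genes and at -0.28 relative to that of all measured genes of the chromosome, and 106 of the other 569 brighter genes (18.6%) lay lower still. Cdh3 was at 0.73 and 0.63 relative to the same medians, and 2 of the other 569 brighter genes, Nqo1 (0.51) and Cbln1 (0.49), had a larger difference; both were named after their values were seen. The histogram of chromosome 8 differences shows Cdh1 inside the bulk of the genes and Cdh3 near its upper end.

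**Figure D2:**
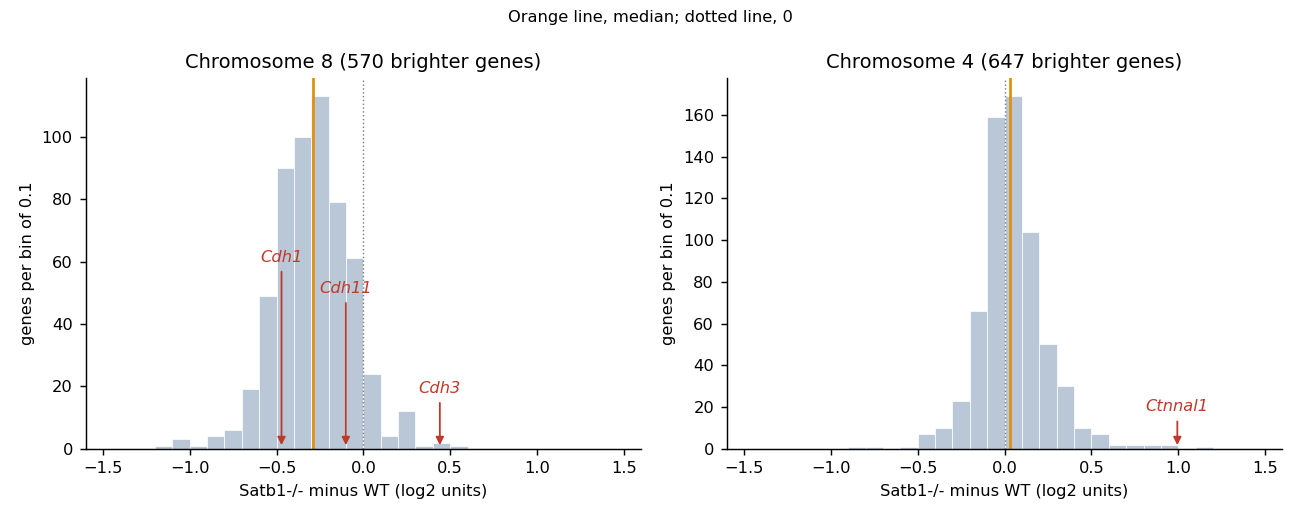
Number of brighter genes (vertical axis, bins of 0.1) by difference, Satb1-/- minus WT in log2 units (horizontal axis), on chromosome 8 (left, 570 genes) and chromosome 4 (right, 647 genes), with the median as an orange line. Arrows mark Cdh1 (-0.47), Cdh11 (-0.10) and Cdh3 (0.44) on chromosome 8, where the median is -0.29, and Ctnnal1 (0.99) on chromosome 4, where it is 0.03.

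When the median of the brighter genes of each chromosome was subtracted on every array before the fit, Cdh1 differed by -0.17 (95% interval -0.46 to 0.12, limma adjusted p = 0.796). In the same fit Cdh3 was called higher, by 0.75 (SE 0.15, 95% interval 0.41 to 1.08, limma adjusted p = 0.0396). That fit called 0.632% of all genes higher and 0.316% lower. Of the 955 genes of chromosome 8 it called 2 higher (0.209%), Cbln1 (0.80) and Cdh3. Relative to the WT mean, and after the chromosome's shift on the same array was taken off, Cdh3 stood at 0.60, 0.86 and 0.73 in Satb1-/- arrays, against -0.19, 0.32 and -0.11 in WT arrays. For Cdh1 the same quantity was -0.28, -0.07 and -0.20 in Satb1-/- arrays, against -0.07, 0.19 and -0.11 in WT arrays, so the groups overlapped.

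The genes nearest to the pair mostly had differences below 0. The 20 measured genes around Cdh3, Cdh1 among them, had a median difference of -0.37, and 14 of the 16 brighter ones were below 0. Zfp90, next to Cdh3 on the far side from Cdh1, differed by -0.19 (limma adjusted p = 0.763). Tango6, next to Cdh1, read 6.76 in Satb1-/- cells and 7.28 in WT cells and was called lower (-0.51, limma adjusted p = 0.0351). Differences above 0 in that window were found for Esrp2, a splicing regulator of epithelial cells (0.28), and Sntb2 (0.07), named after their values were seen.

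**Figure D3:**
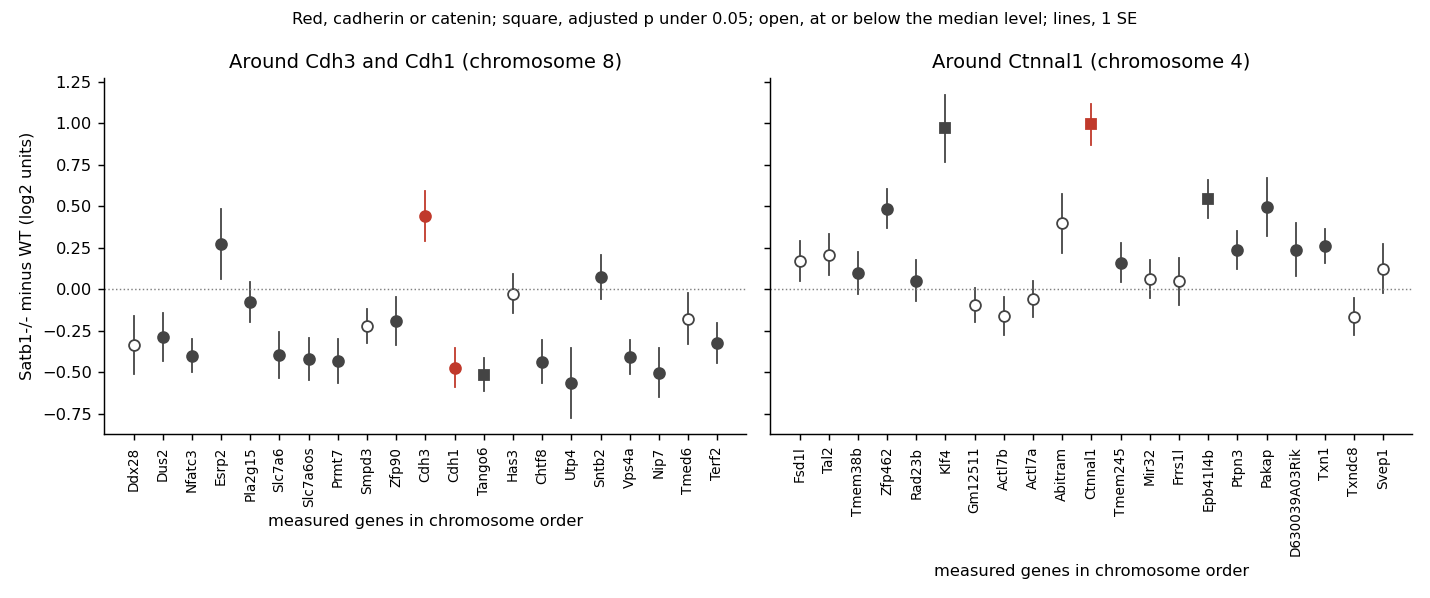
Difference, Satb1-/- minus WT in log2 units (vertical axis, lines of 1 SE), of the measured genes on either side of Cdh3 and Cdh1 (left) and of Ctnnal1 (right), in chromosome order (horizontal axis). Squares passed the limma threshold, open symbols were not brighter than the median gene. Cdh3 (0.44) stands above a window with a median of -0.37, and Ctnnal1 (0.99) above one with a median of 0.17.

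Cdh5 encodes VE-cadherin of endothelial junctions. It read 3.963, 4.045 and 3.800 in Satb1-/- arrays, against 4.389, 4.399 and 4.156 in WT arrays. All Satb1-/- values were lower, by a gap of 0.11, and the difference was -0.38 (SE 0.12, 95% interval -0.64 to -0.12, limma adjusted p = 0.202). The gene was dimmer than the median gene, where a log2 difference can understate a change, and relative to chromosome 8 it was at -0.09 against the median of its brighter genes and at -0.19 against that of all its measured genes. Of 12 endothelial markers 6 were brighter and 0 were called, with mean levels of 4.89 to 5.01 in Satb1-/- arrays and 4.76 to 4.93 in WT arrays; their part in the Cdh5 values was not tested. On the chromosome Cdh5 stands between Cdh11 and Bean1 (0.29, limma adjusted p = 0.537), and of the 20 genes around it Got2 (-0.51) and Nae1 (-0.64), named after their values were seen, were called lower.

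Cdh11 encodes OB-cadherin, a type II cadherin of mesenchymal cells and fibroblasts. It read 7.05, 6.64 and 7.05 in Satb1-/- arrays, against 6.95, 6.88 and 7.21 in WT arrays. The groups overlapped, with Satb1-/- replicate 1-2 lowest and WT replicate 3 highest, and the difference was -0.10 (95% interval -0.42 to 0.22, limma adjusted p = 0.914). Its sign turned without Satb1-/- replicate 1-2 (0.04) and after the chromosome median was subtracted (0.20). A list of 21 measured feeder fibroblast markers, of which 19 were brighter and 0 called, had mean levels of 6.28 to 6.54 in Satb1-/- arrays and 6.10 to 6.37 in WT arrays. WT replicate 3, highest for Cdh11, had the lowest mean of that list (6.10), and Satb1-/- replicate 1-2, lowest for Cdh11, had the lowest of its group (6.28). The part of feeder cells in the Cdh11 values was not tested. A330008L17Rik, its neighbour on the side away from Cdh5, differed by -0.29.

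Cdh2, the N-cadherin gene of neural and mesodermal cells, lies on chromosome 18. It read 6.20, 5.92 and 6.16 in Satb1-/- arrays, against 6.15, 5.73 and 6.08 in WT arrays. The groups overlapped, and the difference of 0.11 had a 95% interval of -0.19 to 0.41 (limma adjusted p = 0.893), or 0.875 to 1.33 times the WT level. Its sign turned without WT replicate 2, the lowest array (-0.02). Neural markers had mean levels of 4.68 to 4.76 in Satb1-/- arrays and 4.65 to 4.83 in WT arrays, with 4 of 11 measured genes brighter. Of the 11 genes 1, Nes, was called lower, where 0.476% of all genes were. Markers of mesendoderm, the gastrulating layer, had mean levels of 4.50 to 4.76 in Satb1-/- arrays and 4.53 to 4.69 in WT arrays, with 2 of 9 measured genes brighter; the part of either list in the Cdh2 values was not tested. The genes next to Cdh2, Chst9 (0.02) and 4921533I20Rik (-0.07), had differences near 0, but both were dimmer than the median gene. Among the 20 measured genes around Cdh2, 5 of the 7 brighter ones lay above 0, with a median of 0.21.

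Across the numbered cadherins, a group that leaves out the desmosomal cadherins, 23 genes were measured. Of these 5 were brighter than the median gene, namely the members Cdh1, Cdh2, Cdh3 and Cdh11 and also Cdh24. None of the 23 was called in either direction by limma, where 1.4% of all genes were. On chromosome 8, 7 of 8 cadherin genes had a difference below 0 (median -0.08), and elsewhere 10 of 15 had one (median -0.07). All measured genes of chromosome 8 had a median of -0.19, and 7.72% of its brighter genes lay above 0. Of all 19938 genes, 10259 had a difference below 0. The other chromosome 8 cadherins, Cdh8 (-0.09), Cdh13 (-0.07), Cdh15 (-0.07) and Cdh16 (-0.02), were all dimmer than the median gene. Among the numbered cadherins outside the set the largest differences were those of Cdh18, at 4.24 in Satb1-/- cells and 4.55 in WT cells (-0.31, limma adjusted p = 0.246), and Cdh24 (-0.17, limma adjusted p = 0.684).

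Ctnnal1 was the 1 gene of the set that passed the test. Its protein, alpha-catulin, resembles alpha-catenin and vinculin. It read 9.67, 9.55 and 9.66 in Satb1-/- arrays, against 8.69, 8.40 and 8.81 in WT arrays. The 3 Satb1-/- arrays lay within a narrow band, all above the WT arrays, and the gap between the groups was 0.74. The mean was 9.63 ± 0.07 in Satb1-/- cells and 8.63 ± 0.21 in WT cells (SD, n = 3 each). The difference of 0.99 (SE 0.12, 95% interval 0.72 to 1.27, limma adjusted p = 0.00303) is a 1.99-fold level, with an interval of 1.65 to 2.41. Leaving out any 1 array gave 0.88 to 1.08, with an adjusted p of at most 0.0321, and 1.08 without WT replicate 3.

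Ctnnal1 lies on chromosome 4, where the median over 647 brighter genes was 0.03. Of the 646 others, 1 had a larger difference than Ctnnal1, the adenylate kinase gene Ak4 (1.16), named after its value was seen. On this chromosome 8 of 1154 genes were called higher (0.693%) and 1 lower (0.0867%). The 20 measured genes around Ctnnal1 had a median difference of 0.17, and all 10 brighter ones among them were above 0, with a median of 0.25. Called among them were Klf4, a pluripotency factor gene, at 7.80 in Satb1-/- cells and 6.83 in WT cells (0.97), and Epb41l4b (0.54), a gene for a membrane skeleton protein; these too were named after their values were seen. The nearest genes on each side, Abitram (0.40) and Tmem245 (0.16), were not called (limma adjusted p = 0.461 and 0.757). Whether Ctnnal1 differed apart from its surroundings was not tested; after the chromosome median was subtracted its difference was 0.95 (adjusted p = 0.00360).

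RefSeq promoter windows, which run from 250 bases before to 50 bases after an annotated start, matched 4 of the 10 genes (build GRCm38.p6). The windows of Ctnnal1, the called gene, and of Ctnnb1, the beta-catenin gene with a difference near 0, are shown because their differences are the largest and the smallest in size among the catenins. Windows for Cdh1, Cdh2, Cdh3, Cdh5, Cdh11 and Ctnna1 were not used here. Capitals mark matches, on either strand, to the GC box, searched as GGGCGG, or to the CCAAT box, searched by those letters; the patterns do not contain one another. Ctnnal1 is at chr4:56865162-56865461 on the minus strand, around a start 164 bases inside the annotated 5′ end of the gene, and Ctnnb1 at chr9:120933150-120933449 on the plus strand, around the annotated start; a second Ctnnb1 window further in is not shown.
Ctnnal1: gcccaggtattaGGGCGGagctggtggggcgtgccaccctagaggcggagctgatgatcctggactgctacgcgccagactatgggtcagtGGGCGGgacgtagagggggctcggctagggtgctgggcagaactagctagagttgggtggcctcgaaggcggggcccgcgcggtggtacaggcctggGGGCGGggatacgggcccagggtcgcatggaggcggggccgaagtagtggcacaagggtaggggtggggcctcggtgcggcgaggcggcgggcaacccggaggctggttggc
Ctnnb1: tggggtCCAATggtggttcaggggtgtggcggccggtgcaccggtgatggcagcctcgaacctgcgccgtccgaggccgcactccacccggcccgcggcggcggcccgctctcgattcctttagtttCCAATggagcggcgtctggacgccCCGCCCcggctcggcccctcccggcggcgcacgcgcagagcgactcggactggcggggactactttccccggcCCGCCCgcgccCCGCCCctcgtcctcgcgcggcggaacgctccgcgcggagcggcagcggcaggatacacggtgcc
Both windows are rich in G and C, 70.3% in Ctnnal1 and 75.3% in Ctnnb1, against a median of 52.7% over 32851 windows of the same length. The dinucleotide CG occurs 24 times in Ctnnal1 and 46 times in Ctnnb1, and the median window holds it 7 times. Each holds the GC box 3 times, as 35.7% of all windows hold it at least once. Ctnnb1 also holds CCAAT 2 times and Ctnnal1 0 times, with 37.4% of windows holding it. Neither has a match on either strand to the E-box CANNTG, which is in 72.3% of windows. Neither has one to the TATA box as TATAAA, found in 13.6% of windows. The same holds for a TCF motif searched as CTTTGAT, found in 3.73%. The second Ctnnb1 window, which is not shown, differs: it holds TATAAA 1 time and CCAAT 0 times. The matches describe letters only.

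Ctnnb1 encodes beta-catenin. It read 9.90, 9.87 and 9.88 in Satb1-/- arrays, against 9.69, 9.88 and 9.88 in WT arrays. WT replicate 1 was the single low array, and the others lay together. The difference of 0.06 (SE 0.10, limma adjusted p = 0.929) had a 95% interval of -0.17 to 0.29, which is 0.892 to 1.23 times the WT level. The sign turned after the chromosome median was subtracted (-0.04). The genes beside it, 5830454E08Rik (0.01) and Ulk4 (0.12), also had small differences, but both were dimmer than the median gene.

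Ctnna1 encodes alpha-E-catenin, the actin link of epithelial junctions. It read 9.39, 9.47 and 9.45 in Satb1-/- arrays, against 9.12, 9.34 and 9.11 in WT arrays. The groups stood apart by 0.05, with WT replicate 2 nearest to the Satb1-/- values. The difference of 0.24 (SE 0.11, 95% interval 0.01 to 0.48) did not pass the threshold (limma adjusted p = 0.453). Its chromosome, 18, had a median of 0.04 over 240 brighter genes. The genes beside Ctnna1, Hspa9 (-0.00) and Lrrtm2 (0.02), had differences near 0, and Lrrtm2 was dimmer than the median gene.

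Ctnnd1 encodes p120-catenin, which keeps cadherins at the surface. Its values were 8.32, 8.26 and 8.28 in Satb1-/- arrays, against 8.07, 8.22 and 8.19 in WT arrays. Here too the Satb1-/- values lay just above the WT values, by 0.04. The difference was 0.13 (SE 0.10, 95% interval -0.09 to 0.35, limma adjusted p = 0.777). Its neighbours Tfpi and Selenoh differed by 0.63 (limma adjusted p = 0.197) and -0.02, and the 20 genes around Ctnnd1 had a median of 0.02.

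Ctnna2 encodes alpha-N-catenin of neurons and was dimmer than the median gene. It read 4.051, 4.100 and 4.001 in Satb1-/- arrays, against 4.220, 4.228 and 4.070 in WT arrays. The groups overlapped through Satb1-/- replicate 1-2 and WT replicate 3 (difference -0.12, 95% interval -0.35 to 0.11, limma adjusted p = 0.810). The gene lies on chromosome 6, where 74 of 1099 genes were called higher (6.73%) and 20 lower (1.82%). Of the 20 genes around it 0 were called. Their median was 0.07, and 8 of the 9 brighter ones lay above 0, opposite in sign to Ctnna2. The genes beside it, 4931417E11Rik (-0.13) and Lrrtm1 (-0.06), had differences of the same sign as Ctnna2, but both were dimmer than the median gene.

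Ordered by size, the differences thus ran from Ctnnal1 (0.99) and Cdh3 (0.44) through Ctnna1, Ctnnd1, Cdh2 and Ctnnb1 to Cdh11, Ctnna2, Cdh5 (-0.38) and Cdh1 (-0.47). The 95% interval of Ctnnal1, which starts at 0.72, did not reach any other gene's estimate, and the intervals of the genes from Ctnna1 to Ctnna2 all overlapped one another.

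**Figure D4:**
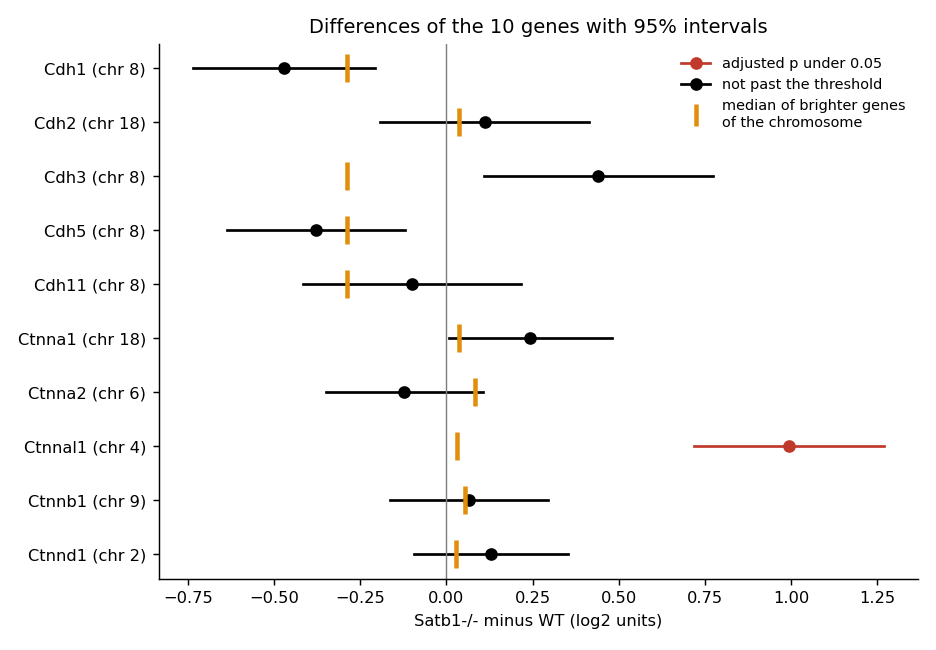
Difference, Satb1-/- minus WT in log2 units (horizontal axis), of each cadherin and catenin gene with its 95% interval from limma, in red where the adjusted p is under 0.05. Orange bars mark the median difference of the brighter genes on the same chromosome. The bar lies at -0.29 for the chromosome 8 genes and between 0.03 and 0.08 for the others, and Ctnnal1 and Cdh3 have intervals that do not reach it.

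Profiles over the 6 arrays, each centred on its own mean, were compared with those of all other brighter genes by the root mean square difference in log2 units. Closest to Cdh1 were Ddx19b, also on chromosome 8 (0.059), and Atp10d (0.061). For Cdh3 they were Dhtkd1 (0.033) and Vwa8 (0.044), on chromosomes 2 and 14. Ctnnal1 was closest to Atn1 (0.065) and Wbp11 (0.073), both on chromosome 6 and both called higher (0.92 and 1.09). Profiles were not scaled, so a gene picked this way has a difference near that of the member by construction. Their calls therefore add nothing to that of Ctnnal1, and on chromosome 6 6.73% of genes were called higher. The flat profile of Ctnnb1 was nearest to Mia3 (0.011) and Mtf2 (0.019). Ctnna1 had Usp9x (0.018) and Ppm1a (0.019), Ctnnd1 had Sh3bgrl2 (0.020) and 9930021J03Rik (0.023), Cdh2 had Recql4 (0.046) and Emsy (0.048), and Cdh11 had Drosha (0.027) and Rnf40 (0.030).

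Other genes of junctions and of beta-catenin signalling were followed in 9 lists with 140 measured entries. In 6 lists no gene was called in either direction. The remaining 3 each had 1 called gene, higher in Satb1-/- cells, against a background of 0.923% of genes called higher. The median differences of the lists lay between -0.19 and 0.15, beside -0.00 over all genes.

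In the desmosome list, Dsg2, a desmosomal cadherin gene of simple epithelia, read 7.11, 7.10 and 7.11 in Satb1-/- arrays, against 6.22, 6.45 and 6.41 in WT arrays. The Satb1-/- values lay almost on 1 level, all above WT, and the difference was 0.74 (SE 0.11, limma adjusted p = 0.00651). It lost the call without Satb1-/- replicate 1-2 or 2-1 (highest adjusted p = 0.0560; 0.67 to 0.79 over all arrays left out). Dsg2 lies 8 measured genes from Cdh2 on chromosome 18, and the 20 genes around it had a median of 0.03. Of the 10 measured desmosome genes 8 had a difference below 0, and the list's median was -0.19.

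Skp1, which encodes a subunit of the ubiquitin ligase that marks beta-catenin for degradation and of many other such ligases, was the 1 called gene of 15 in the destruction complex list. It read 10.42, 10.52 and 10.72 in Satb1-/- arrays, against 9.72, 9.92 and 9.93 in WT arrays, with no overlap. Its difference of 0.70 (SE 0.12, limma adjusted p = 0.0182) lost the call without WT replicate 1 or any 1 Satb1-/- array. Over all arrays left out in turn, the difference was 0.61 to 0.76. The 20 genes around it on chromosome 11 had a median of 0.46, and 6 of them were called higher. On the whole chromosome 25 of 1563 genes were called higher, and over all genes 0.923%. The list as a whole had a median of 0.01.

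Esrrb, a pluripotency factor gene that beta-catenin relieves from repression by TCF7L1, was the 1 called gene of 18 in the target list. It read 9.23, 9.17 and 9.21 in Satb1-/- arrays, against 8.50, 8.82 and 8.62 in WT arrays. The groups did not overlap, and the difference was 0.56 (SE 0.11, limma adjusted p = 0.0435). The call was lost without WT replicate 1 or any 1 Satb1-/- array, and also with each array centred on its median. With each array left out in turn, the difference was 0.48 to 0.64. Without WT replicate 3, 4 genes of the list were called higher, in a fit that called 356 of all genes higher (1.79%) and 124 lower (0.622%). The median of the list was 0.04.

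Regulators of the E-cadherin gene, repressors of the Snail, ZEB and Twist families and epithelial activators, held 0 called genes of 17, with a median of 0.15. The largest differences were those of Grhl3, an epithelial activator, at 7.18 in Satb1-/- cells and 6.58 in WT cells (0.60, limma adjusted p = 0.190), and Klf8, a repressor gene (0.54, limma adjusted p = 0.241). Klf8 passed in that fit without WT replicate 3 (0.77, limma adjusted p = 0.00523). Among 13 genes of E-cadherin turnover the sheddase gene Adam10 had the largest difference, 7.40 in Satb1-/- cells and 6.70 in WT cells (0.69, limma adjusted p = 0.116), followed by the recycling GTPase gene Rab11a (0.30, limma adjusted p = 0.421). Adam10 too passed without WT replicate 3 (0.85, limma adjusted p = 0.0245).

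Plaque proteins held 0 called genes of 21 (median 0.04), and the largest differences were those of Pkp4, an armadillo protein related to p120-catenin (0.34, limma adjusted p = 0.196), and Lpp, a LIM protein of adhesion sites (-0.26, limma adjusted p = 0.636). The TCF factors and nuclear partners of beta-catenin held 0 called genes of 14 (median 0.08), led by Tcf7l1 (0.41) and Tcf7l2 (0.37; limma adjusted p = 0.404 and 0.423). Epithelial adhesion genes held 0 of 15 (median -0.07, of the opposite sign without Satb1-/- replicate 1-1 or WT replicate 2, at 0.01 and 0.07), with Cldn7, a claudin of tight junctions (-0.41, limma adjusted p = 0.625), and Pard3, a polarity gene on chromosome 8 (-0.34, limma adjusted p = 0.168), at the largest sizes.

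**Figure D5:**
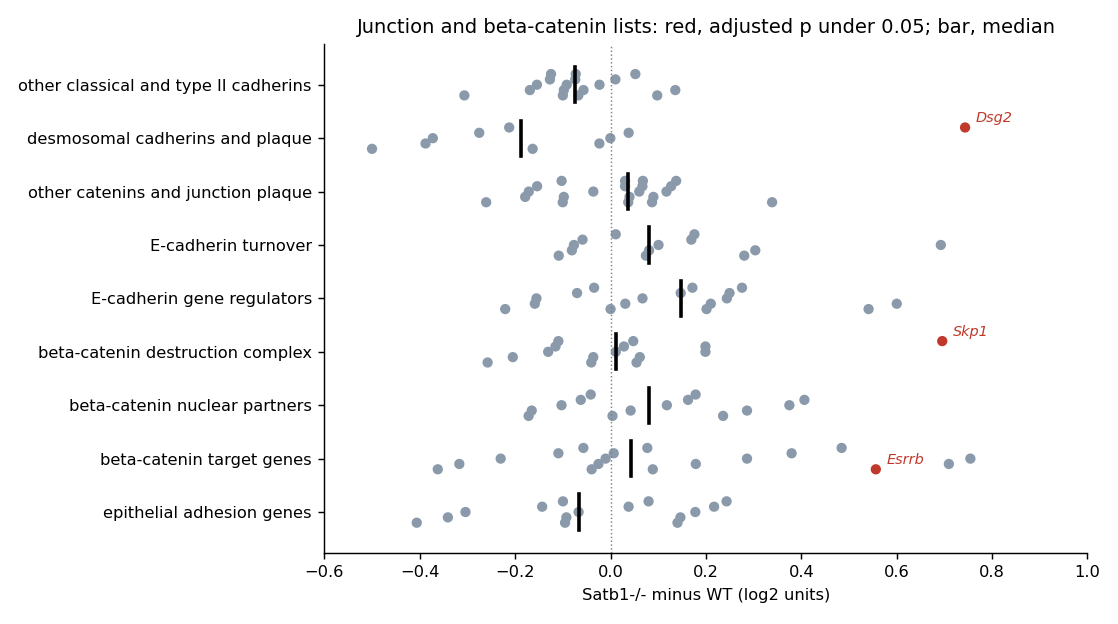
Difference, Satb1-/- minus WT in log2 units (horizontal axis), of every measured gene of the 9 lists of junction and beta-catenin genes (vertical axis), with the median of each list as a black bar. Red points passed the limma threshold: Dsg2 (0.74), Skp1 (0.70) and Esrrb (0.56).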

How the data were processed

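Total RNA labelled with biotin was hybridised to 1-colour arrays, 6 in all. RMA, per the submitters' processing notes, gave the deposited log2 values, and the sources used here state no version or settings of it. There were 35557 probe sets, and the array medians ran from 4.69 to 4.85. Precision is limited by how few arrays there are. Symbols came from the platform annotation: 21789 probe sets had 1 symbol, 1621 several and 12147 none. The probe set with the highest mean was kept for each of 19938 genes, and 19856 had a chromosome in RefSeq (GRCm38.p6) by Entrez ID. That build may not be the array's, so RefSeq served for gene order and promoter windows.

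Groups were compared with limma 3.58.1 in R 4.3.3 (lmFit, eBayes, no covariate or filter), with Benjamini-Hochberg adjustment over all genes. Adjusted p-values are from limma. The fit was also run on simulated data with noise drawn separately for each gene. Such data cannot show how shifts shared by many genes affect the calls. The 16 alternatives left out each array, changed weights, normalization, filter, probe sets or variance model, or subtracted chromosome medians. Named were all 10 members, nearest neighbours, the 2 most alike genes, Satb1, and in each list up to 4 called genes or else the 2 largest differences. Members and lists were chosen with earlier results of these data known.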

Additional observations from a re-analysis of the deposited data

How the results depend on the processing

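Ctnnal1 was called higher under all 16 alternatives (0.88 to 1.11). Cdh1 stayed below 0 (-0.57 to -0.17) and passed with array weights (-0.57). Cdh3 stayed above 0 (0.29 to 0.75) and passed with the chromosome median subtracted (0.75). That setting reversed Cdh2 (-0.001), Cdh11 (0.20) and Ctnnb1 (-0.042), none of them called. Without 1 array, Cdh2 ranged from -0.017 to 0.20 and Cdh11 from -0.17 to 0.035. Member genes called higher were 2, not 1, with chromosome medians subtracted, and 1, not 0, was called lower with array weights.

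Over all genes, the counts of 184 higher and 95 lower were 373 and 235 under array weights, 90 and 27 when Satb1-/- arrays 1-1 and 1-2 were averaged into 1 sample, 97 and 24 with a minimum difference of 0.2, 126 and 63 with chromosome medians subtracted, 159 and 47 with arrays centred and 242 and 183 after a second quantile normalization. Without 1 array they ranged from 74 (without Satb1-/- replicate 2-1) to 356 (without WT replicate 3) higher and from 19 (without Satb1-/- replicate 1-2) to 124 lower.

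In the lists, a second quantile normalization gave 1 lower desmosome gene and a plaque median of -0.007, centring gave 0 higher beta-catenin targets, Esrrb included, and the brighter targets had a median of 0.29. Without 1 array, the desmosome list held 0 to 1 genes in each direction, the turnover, regulator and destruction complex lists 0 to 1 higher genes, and the targets 0 to 4. Medians then ranged from -0.0006 to 0.17 for turnover, 0.027 to 0.18 for regulators, -0.069 to 0.017 for the destruction complex, -0.16 to 0.074 for epithelial adhesion, 0.021 to 0.17 for nuclear partners and -0.15 to -0.011 for other cadherins. The cause of these shifts was not tested. No paired analysis was possible because the groups share no replicate numbers. Dim genes such as Cdh5 and Ctnna2 limit what a difference can show.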

Other observations

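Without WT replicate 3, 356 of all genes (1.79%) were called higher and 124 (0.622%) lower, against 184 and 95 with all arrays. Among the genes that passed in that fit, Notum, a feedback inhibitor gene of Wnt signalling, differed by 0.87 (limma adjusted p = 0.00796), Ccnd1, the cyclin D1 gene, by 0.68 (limma adjusted p = 0.0214) and Nr0b1, an ES cell nuclear receptor gene, by 1.06 (limma adjusted p = 0.00430). With all 6 arrays they differed by 0.71, 0.38 and 0.75 (limma adjusted p = 0.0689, 0.642 and 0.206). The desmosomal plaque gene Pkp2 passed without WT replicate 1 (-0.64, limma adjusted p = 0.0414) and differed by -0.50 with all arrays (limma adjusted p = 0.128). These genes were named after their values were seen.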
